A study of Mus musculus with 2 samples.

Results

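The loops described here join a pair of anchors that lie more than 800 kb and at most 2 Mb apart on the same chromosome in Hi-C maps of the mouse uterus. They were chosen by the distance between the starts of the anchors, with no use of contact values. The rule took 2639 of the 26240 listed loops in diestrus (10.1%) and 2369 of 24131 in estrus (9.82%), which makes 5008 of 50371 over both lists. The tissue was the uterus of intact CD-1 mice without any exposure, aged 2 months, taken in diestrus or in estrus. Diestrus is the progesterone-dominated stage of the mouse estrous cycle, and estrus, the stage of mating, follows the preovulatory peak of estradiol. Each stage was represented by 1 Hi-C library, and the labels do not say how many animals went into it. No p-value between the stages can therefore be given, and intervals cover counting error only. Loop lists hold no expression values, so the tissue was not checked against marker genes. The uterus was profiled in bulk, so a loop present in fewer cells and a loop in less frequent contact within each cell cannot be told apart.

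A chromatin loop is seen in Hi-C as a pair of distant positions that meet more often than their surroundings. Most mammalian loops form where the cohesin complex, extruding a loop of chromatin, is halted by the zinc finger protein CTCF bound at a pair of sites that face each other. Loops of this length are known for joining the promoters of developmental regulators with enhancers scattered over gene deserts, long stretches with no protein-coding gene. The Shh promoter with its limb enhancer inside an intron of Lmbr1, the Hox clusters with the deserts on either side, and Myc with the desert downstream of it are textbook cases. In the uterus, products of such genes, among them Hoxa10, Hoxa11, Nr2f2 and Wnt5a, pattern the tract or serve implantation.

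The promoters of 7 genes found in the anchors of these loops are printed here, and loops of all of these but Foxc1 are described below. The anchors that hold the printed promoters of Nr2f2, Adamts1 and Nrp2 had fans of 6 to 9 long loops. Irs1, Basp1 and Hoxa9 anchored some of the strongest, and Foxc1 carried a CTCF core motif. Each run is the 250 bases before an annotated transcription start, 5′ to 3′ on the gene's own strand, from RefSeq on GRCm38.p6, the assembly that mm10 names. Capitals mark a match to the core of the CTCF motif, searched on both strands.
Nr2f2, chr7:70366747-70366996, minus strand: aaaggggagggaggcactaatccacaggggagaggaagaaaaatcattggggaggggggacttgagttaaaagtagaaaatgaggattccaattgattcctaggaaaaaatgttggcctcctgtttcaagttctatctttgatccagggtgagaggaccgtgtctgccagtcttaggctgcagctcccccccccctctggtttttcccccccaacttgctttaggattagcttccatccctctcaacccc
Adamts1, chr16:85803114-85803363, minus strand: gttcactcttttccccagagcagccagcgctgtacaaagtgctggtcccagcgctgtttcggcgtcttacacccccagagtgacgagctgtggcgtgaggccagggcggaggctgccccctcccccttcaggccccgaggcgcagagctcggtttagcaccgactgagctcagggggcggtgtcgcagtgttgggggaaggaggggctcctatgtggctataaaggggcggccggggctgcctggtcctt
Nrp2, chr1:62703067-62703316, plus strand: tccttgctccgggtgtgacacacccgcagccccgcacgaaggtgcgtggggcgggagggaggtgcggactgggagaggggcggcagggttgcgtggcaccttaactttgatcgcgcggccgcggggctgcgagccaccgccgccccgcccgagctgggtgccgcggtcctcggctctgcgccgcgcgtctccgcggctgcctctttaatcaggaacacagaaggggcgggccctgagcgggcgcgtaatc
Irs1, chr1:82291440-82291689, minus strand: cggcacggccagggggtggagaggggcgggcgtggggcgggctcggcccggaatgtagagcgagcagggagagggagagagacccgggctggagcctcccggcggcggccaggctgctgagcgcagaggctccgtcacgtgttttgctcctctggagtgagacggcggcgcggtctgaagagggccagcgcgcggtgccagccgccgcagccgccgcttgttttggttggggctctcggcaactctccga
Basp1, chr15:25413765-25414014, minus strand: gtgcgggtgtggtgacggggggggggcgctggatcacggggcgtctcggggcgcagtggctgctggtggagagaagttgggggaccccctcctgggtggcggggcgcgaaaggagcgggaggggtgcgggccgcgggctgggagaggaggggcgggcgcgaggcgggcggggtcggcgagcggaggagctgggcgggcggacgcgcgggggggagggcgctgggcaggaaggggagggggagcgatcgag
Hoxa9, chr6:52227371-52227620, minus strand: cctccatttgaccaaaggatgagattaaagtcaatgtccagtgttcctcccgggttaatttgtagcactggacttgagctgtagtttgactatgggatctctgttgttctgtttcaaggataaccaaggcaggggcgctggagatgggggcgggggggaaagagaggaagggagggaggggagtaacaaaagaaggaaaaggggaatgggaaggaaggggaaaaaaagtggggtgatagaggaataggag
Foxc1, chr13:31806396-31806645, plus strand: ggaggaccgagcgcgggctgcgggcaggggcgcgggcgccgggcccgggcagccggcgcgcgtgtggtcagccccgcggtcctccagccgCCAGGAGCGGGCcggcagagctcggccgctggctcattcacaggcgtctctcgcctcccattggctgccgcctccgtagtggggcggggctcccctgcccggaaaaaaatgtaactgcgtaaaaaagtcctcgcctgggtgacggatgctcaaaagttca

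In Foxc1, which encodes a forkhead factor of mesenchymal and eye development, the match CCAGGAGCGGGC began 160 bases before the start and lay on the plus strand of the chromosome. The Foxc1 anchor was the left one of its loop in both stages. No match was found in the other 6 windows, which says only that these letters are absent there. Over windows of 300 bases around the start, 10 of 434 promoters in anchors of long loops held the core in diestrus (2.30%, 95% interval 1.11 to 4.2) and 8 of 389 in estrus (2.06%, 0.892 to 4.01). The share over all 21045 protein-coding promoter windows was 2.37%, and over promoters in an anchor of any loop it was 3.13% in diestrus and 3.37% in estrus. In left anchors only, the core lay on the plus strand in 5 promoters and on the minus strand in 2 in diestrus. In estrus these numbers were 2 and 3. In right anchors only, they were 1 and 2 in diestrus and 0 and 3 in estrus. These counts are too few to describe an orientation. The palindromic estrogen response element, searched in the same way, was present in 11 of the 21045 windows, and 1 of those lay in anchors of long loops, in both stages, at a start of the homeobox gene Evx2.

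The terms used below are these. Contacts are the raw number of read pairs at the peak of a loop, and strength is that number divided by the number expected from the donut-shaped neighbourhood around it. A loop was counted as found in the other stage when a loop of that list had an anchor at most 10 kb from each of its anchors, measured between the nearest edges, so that the starts can lie up to 20 kb apart. A gene was counted at an anchor when either of its annotated ends fell inside the 10 kb window, because the gene table as used here gives no strand. Only protein-coding genes were used unless another class is named.

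Over the whole series, the number of listed loops in estrus was 0.920 times that in diestrus (95% interval 0.904 to 0.936). Among the long loops the ratio was 0.898 (0.849 to 0.949), and the intervals overlapped. Their peaks held 213319 contacts in diestrus and 185346 in estrus, with a median of 57 contacts a loop (interval 56 to 59) and 56 (54 to 57). The total number of read pairs per library is not known here. Chromosome 7 stood apart, with 120 long loops in diestrus and 87 in estrus. Of its diestrus loops 58.3% were found in estrus, against 72.5% over all chromosomes and 73.1% without chromosome 7.

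The long loops thinned out steadily with length. In diestrus 1018 of them spanned more than 800 and at most 1000 kb and 123 spanned more than 1800 and at most 2000 kb, and in estrus 876 and 124 did. Median lengths were 1080 kb (interval 1070 to 1100) and 1100 kb (1080 to 1120). Median strength was 4.10 in the shorter and 4.90 in the longer of these steps in diestrus and 4.29 and 5.19 in estrus, while median contacts were 62 and 43, and 62 and 39. At the lower limit, 51 diestrus and 50 estrus loops of 810 kb were included and 67 and 55 loops of 800 kb were not. At the upper limit, 5 and 6 loops of 2000 kb were included and 5 and 3 of 2010 kb were not. Median strength was 3.95 and 3.98 at 810 kb, and 3.58 and 4.21 at 800 kb.

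Long loops spanned the gene-poor part of the genome. Counted by their midpoints, genes were present at 3.07 per Mb of span in diestrus and 3.07 in estrus, against 15.9 and 16.1 for loops up to 100 kb, 4.97 and 5.38 for loops of 400 to 800 kb, and 8.32 over the genome between the first and last gene of each chromosome. In loops over 2 Mb this pooled density was higher, at 6.93 and 6.63 per Mb, while the median per loop of genes with any base in the span was lower, at 1.26 and 1.27 per Mb. Gene bodies covered 29.7% of the spans in diestrus and 30.5% in estrus, summed over loops, against 39.6% of the genome. With each spanned base counted once, the shares were 33.8% in diestrus and 34.3% in estrus. The median long loop held at least part of 2 genes in either stage, and that median per loop was 1.89 per Mb in diestrus and 1.95 in estrus. No gene at all lay in 135 diestrus loops (5.12%) and 98 estrus loops (4.14%), exactly 1 lay in 774 and 659, and at least 20 in 70 and 61. In 28 diestrus and 18 estrus loops, the span lay inside the body of 1 gene.

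**Figure D1:**
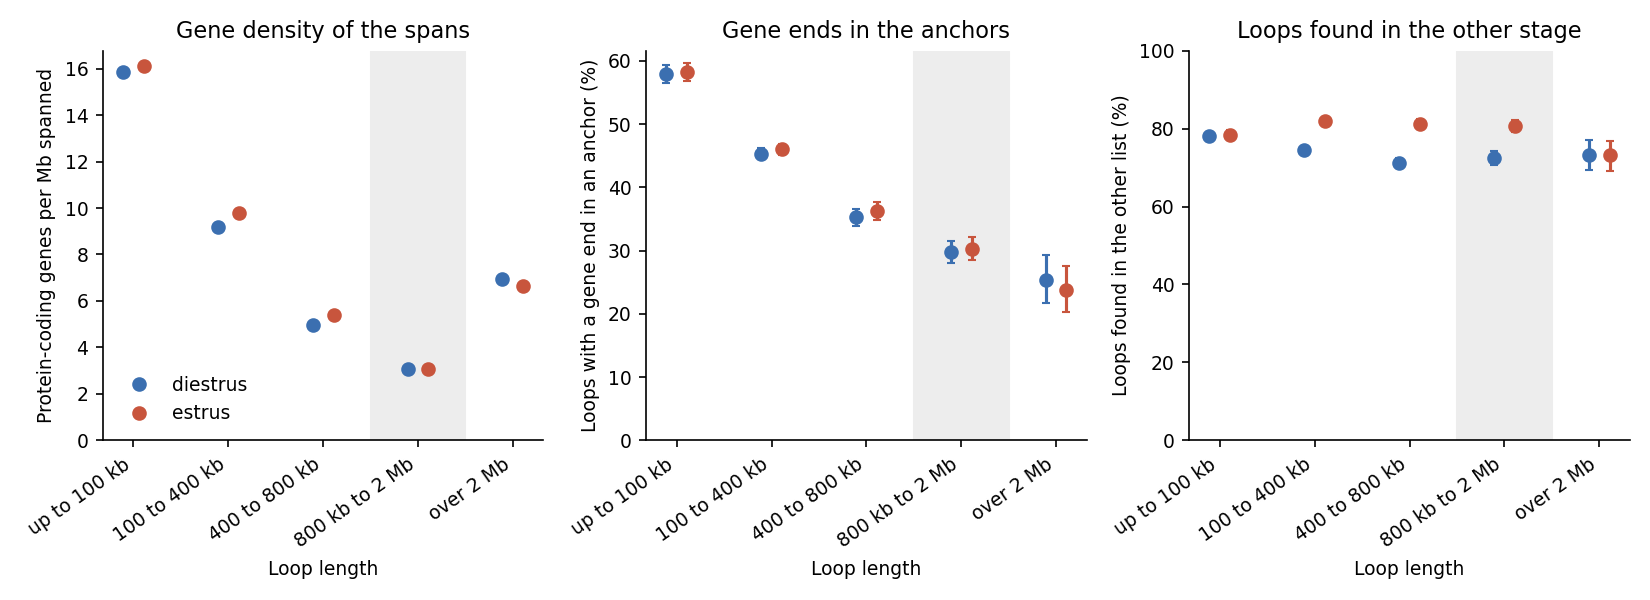
Loops by length class (x axis), with the class of 800 kb to 2 Mb shaded: protein-coding genes per Mb spanned (left), percentage of loops with a gene end in an anchor (middle) and percentage found in the list of the other stage (right), in diestrus (blue) and estrus (red), with 95% Clopper-Pearson bars on the percentages. Pooled gene density, with genes counted by midpoint, is 3.07 per Mb in the shaded class and higher in loops over 2 Mb, where the median per loop is lower (1.26 and 1.27 against 1.89 and 1.95), and gene ends become fewer with each step in length.

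Gene ends were also fewer in the anchors than in those of shorter loops. At least 1 anchor held a gene end in 29.7% of long loops in diestrus (95% interval 28.0 to 31.5) and 30.3% in estrus (28.5 to 32.2), where the share over all loops was 43.8% and 44.7%. Both anchors held one in 91 and 78 loops, 1 anchor in 693 and 640, and neither in 1855 and 1651. The share moved with the definition. With ends up to 5 kb outside the anchor counted it was 43.0% and 44.2%, and when a gene body reaching into the anchor was enough, 67.9% and 69.1%.

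A gene desert, taken here as a stretch of at least 500 kb with no protein-coding gene, lay at least 500 kb deep inside 1545 diestrus loops (58.5%, interval 56.6 to 60.4) and 1386 estrus loops (58.5%, 56.5 to 60.5). Stretches of at least 1 Mb lay in 452 and 400 of them. Few of these stretches were free of annotated genes of other kinds: with every annotated gene counted, long non-coding RNAs and pseudogenes included, 8.72% and 8.32% of long loops held such a stretch. In 971 of the 1545 desert loops of diestrus 1 anchor lay inside the desert, in 135 both did, and in 439 the loop bridged it from outside; in estrus the numbers were 875, 98 and 413. Together the long loops of diestrus spanned 1102 Mb and those of estrus 1054 Mb, of which 40.8% and 40.8% was desert, against 29.7% of the genome. Of the 655 deserts of the genome, 456 were spanned over at least 500 kb by a long loop in diestrus, 439 in estrus and 412 in both.

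The desert between Zeb2 and Acvr2a on chromosome 2 held the most long loops. Zeb2 encodes a zinc finger repressor of epithelial genes, and Acvr2a an activin receptor. Of its 3697 kb, chr2:45117443-48814108, at least 500 kb was spanned by each of 20 long loops in diestrus and 15 in estrus, with 1980 and 1576 contacts in sum. Inside it, the anchor chr2:46440001-46450000, which holds no protein-coding gene end, was used by 11 long loops in diestrus and 8 in estrus. The loop from there to Zeb2, 1330 kb long, held 324 contacts in diestrus and 253 in estrus, at strengths of 10.7 and 8.67. The non-coding gene Gm13470 reached into the anchor far from Zeb2.

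Deserts on both sides of Nr2f2 were spanned too. The desert between Arrdc4 and Nr2f2 on chromosome 7 was spanned in this way by 16 long loops in diestrus and 12 in estrus, and the one between Gm44812 and Mctp2, on the other side of Nr2f2, by 15 and 12. Diestrus and estrus numbers were 14 and 14 at Bckdhb to Tent5a, 14 and 13 at Myc to Gsdmc, 14 and 13 at Etaa1 to Meis1, 12 and 14 at Akr1e1 to Klf6, and 14 and 12 at Osr1 to Nt5c1b. The desert between Slc8a1, a sodium and calcium exchanger, and Pkdcc, a secreted kinase of skeletal development, was spanned by 17 long loops in diestrus and 9 in estrus. All 9 of the estrus loops there were found in diestrus, and 9 of the 17 diestrus loops were found in estrus. The opposite was seen at Tox to Car8, with 7 in diestrus and 10 in estrus.

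Most of the longest deserts carried few long loops. Between Pcdh20 and Pcdh9, a desert of 4542 kb flanked by protocadherin genes of neuronal adhesion, 1 was listed in each stage, with 50 contacts in diestrus and 58 in estrus. Between Tenm3 and Aga, with 3989 kb, none was listed in either stage. Of the 83 deserts of at least 2 Mb, 49 in diestrus (59.0%, interval 47.7 to 69.7) and 43 in estrus (51.8%, 40.6 to 62.9) had a long loop, against 147 and 141 of the 198 deserts of 1 to 2 Mb. Single loops nevertheless crossed almost 2 Mb without a gene. The loop from Cntn5, a neural contactin, into the desert before Jrkl held 73 contacts in diestrus and 84 in estrus at strengths of 5.79 and 6.0, with 1975 kb of gene-free span. A loop of 1930 kb wholly between Lrrc4c and Iftap held 57 and 50 contacts at strengths of 5.01 and 4.84, with no smaller loop inside it in either stage.

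Many long loops shared an anchor. Of the 3510 anchors used by long loops in diestrus and 3196 in estrus, 1127 and 1014 were used by at least 2 long loops, 55 and 34 by at least 5, and the most used by 11. Such anchors looked mostly one way: 70 of the 1127 and 56 of the 1014 had long loops to both sides.

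Myc, the transcription factor that drives cell growth, had the largest fan, with 11 long loops in diestrus and 11 in estrus from the anchor chr15:61980001-61990000. Of these, 10 reached downstream into the desert before Gsdmc and 1 reached upstream. The strongest went 1670 kb downstream, with 335 contacts in diestrus and 285 in estrus at strengths of 6.91 and 7.60. The loop of 1620 kb held 375 and 221 contacts, that of 1180 kb 201 and 151, that of 820 kb 141 and 164, and the upstream loop of 830 kb 271 and 208. In each stage 10 of the 11 were found in the other. Contacts were higher in diestrus at all of these but the loop of 820 kb, and the strengths at 1620 kb were 5.50 and 4.31.

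Nr2f2 encodes COUP-TFII, a nuclear receptor of uterine stroma needed for decidualization. Its ends were in anchors of 10 long loops in diestrus and 8 in estrus, to both sides of the gene. To the left, the loop of 870 kb held 424 contacts in diestrus and 302 in estrus at strengths of 10.3 and 8.06, and that of 1390 kb held 282 and 196 at strengths of 9.75 and 8.75. To the right, the loops of 1020 and 1050 kb held 265 and 159, and 208 and 169 contacts. The 7 found in both stages all held more contacts in diestrus. Strength was also higher in diestrus at all of these but the loop of 1220 kb, where it was 4.12 in diestrus and 5.35 in estrus. At 1050 kb the strengths were close, 4.28 and 4.14. The gene lies on chromosome 7, where fewer diestrus loops were found in estrus than elsewhere.

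Zeb2 had 7 long loops in diestrus and 4 in estrus, and 3 in each stage were found in the other. Those to the left ended inside the body of Arhgap15. The 4 diestrus loops without an estrus partner were weak, with 41 to 57 contacts and strengths of 2.54 to 3.16.

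Fat4, an atypical cadherin of planar polarity and Hippo signalling, sent 7 long loops to the right in either stage, all found in both. The loop of 930 kb was the strongest, with 386 contacts in diestrus and 351 in estrus at strengths of 16.1 and 17.3, followed by that of 1510 kb with 263 and 260 contacts at 8.36 and 10.2. The 5 others held 71 to 202 contacts in diestrus and 63 to 169 in estrus. The number of loops in this fan was the same in both stages, and the starts of the far anchors lay at most 20 kb apart.

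Adamts1, a secreted protease induced by progesterone in the ovary, had 7 long loops in diestrus and 6 in estrus, all to the right over Adamts5 and the desert beyond it. They held more contacts than the fans of the other 5 genes in this group, 2532 and 2111 in sum. The loop of 840 kb had 846 and 767 contacts at strengths of 11.7 and 11.2, that of 1440 kb 715 and 608 at 9.26 and 8.64, and that of 1080 kb 533 and 458 at 10.7 and 10.3.

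Nrp2, a receptor for semaphorins and VEGF, had 7 long loops to the left in either stage, all found in both. Their contacts ran from 50 to 175 in diestrus and from 51 to 148 in estrus, and strength did not exceed 4.93 and 4.90. The 2 shortest, of 930 and 1070 kb, ended in the gene Pard3b. Cited2, a coactivator that binds CBP and p300, and Tent5a, a poly(A) polymerase, each had 6 to the left in either stage, all found in both.

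**Figure D2:**
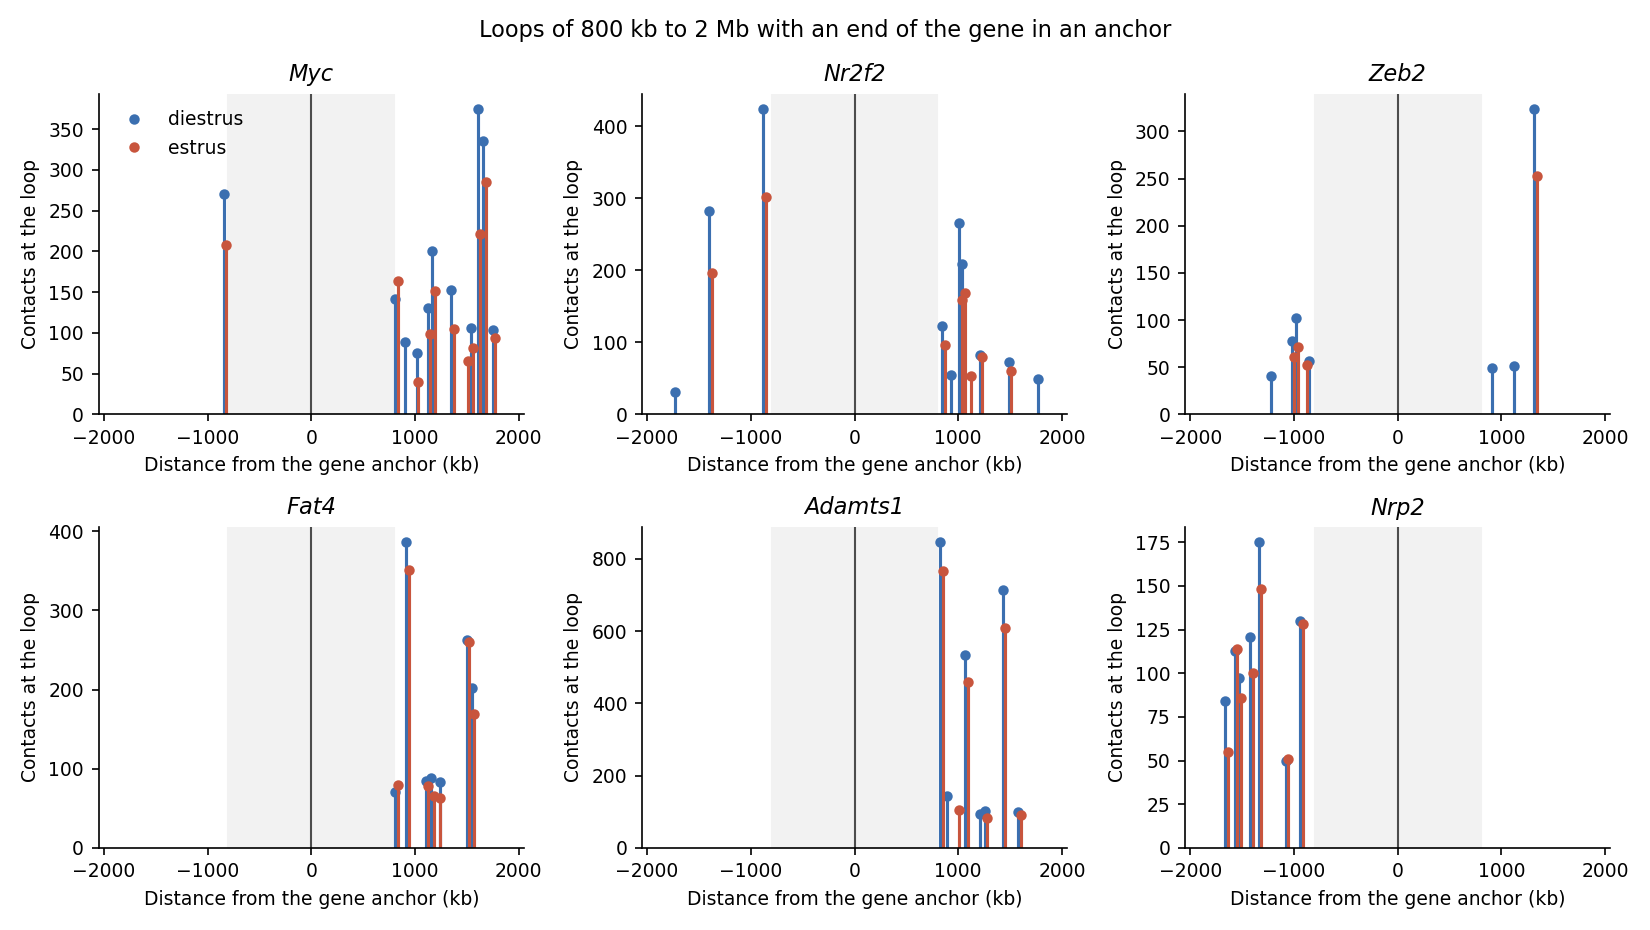
Contacts (y axis, raw read pairs) of each loop of 800 kb to 2 Mb with an end of Myc, Nr2f2, Zeb2, Fat4, Adamts1 or Nrp2 in an anchor, against the signed distance in kb of the far anchor from the gene's own (x axis, negative to the left), in diestrus (blue) and estrus (red). The shaded band holds shorter distances and no loop of the class, and the colours are set slightly apart so that both stay visible. Myc reaches to the right with 10 of 11 loops, Nrp2 only to the left, and Fat4 shows 7 loops in each stage.

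The next results concern genes by their roles. Among all protein-coding genes, 653 of 21631 (3.02%) had an end in an anchor of a long loop in diestrus and 595 (2.75%) in estrus. In the same order, the counts were 12 and 11 of 41 Hox cluster genes (Evx genes included), 14 and 16 of 61 other homeodomain factors, 26 and 28 of 79 other developmental transcription factors, 9 and 10 of 57 signalling genes, 4 and 2 of 35 nuclear receptors and coregulators, and 26 and 23 of 64 guidance and adhesion genes. Of 25 ubiquitously expressed genes, none had one in either stage, and 1 did in each stage when ends within 5 kb were counted. The lists were chosen with earlier results of these data known, so these counts are a description. They too moved with the definition: when a gene body reaching into the anchor was enough, 52 and 50 of the guidance and adhesion genes had a long loop, many of them very long genes, while the Hox counts stayed at 12 and 11. Of the guidance and adhesion genes 87.5% lay at least in part under a long loop in either stage, against 22.1% and 20.9% of all genes.

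Loops with a Hox gene end were stronger than most, with a median of 6.90 over 11 loops in diestrus and 6.89 over 12 in estrus, against 4.17 and 4.30 over all 784 and 718 long loops with a gene end. Those of guidance and adhesion genes had medians of 3.46 over 59 loops and 4.45 over 45, and 67.8% and 86.7% of them were found in the other stage. Those of signalling genes were found in 90.0% of 20 and 95.2% of 21, against 71.7% and 80.1% over all long loops with a gene end.

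**Figure D3:**
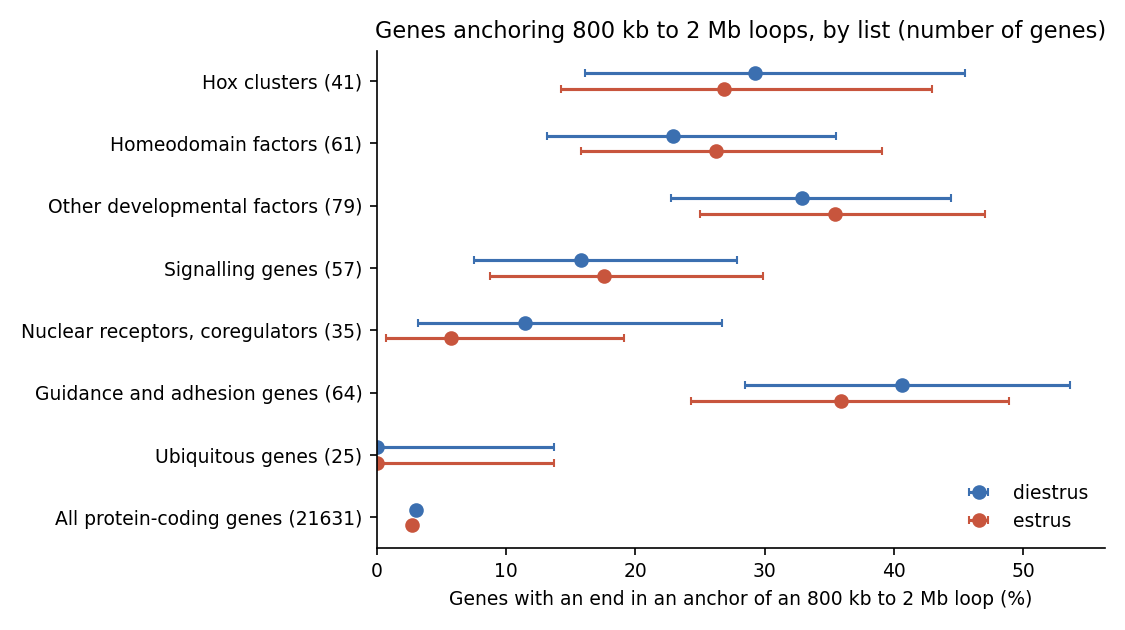
Percentage of genes with an end in an anchor of an 800 kb to 2 Mb loop (x axis) for 7 gene lists and for all protein-coding genes (y axis, number of genes in brackets), in diestrus (blue) and estrus (red), with 95% Clopper-Pearson bars. The points of 6 lists lie above the 3.02% and 2.75% of all genes, and the estrus bar of the nuclear receptors includes that share. The ubiquitous genes lie at 0, with bars up to 13.7% that include it too.

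The Hox clusters, whose genes set position along the body axis and the female tract, were joined to their flanks, HoxA to the left and HoxD to both sides. The HoxA cluster had the long loop with the most contacts of the class. It joined chr6:51170001-51180000 with the anchor of Hoxa9, 1050 kb away, and held 963 contacts in diestrus and 833 in estrus at strengths of 15.1 and 14.7. Hoxa10 and Hoxa11, factors required for uterine receptivity, shared an anchor with loops further into the same flank: the loop of 1430 kb held 147 and 94 contacts at 11.7 and 10.1. A loop to chr6:50970001-50980000 held 250 contacts in diestrus and 170 in estrus, from anchors 1 bin apart, and the estrus one had only Hoxa10 in its anchor. In the HoxD cluster, Evx2 met Sp9, a zinc finger factor of limb and brain, over 1380 kb with 58 contacts in diestrus and 55 in estrus at strengths of 9.88 and 9.59. To the right of the cluster, a loop of 890 kb held 270 contacts in diestrus, from the anchor of Hoxd9 and Hoxd10, and 196 in estrus, from the next bin, that of Hoxd8 and Hoxd9.

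Among other developmental factors, Ebf1, a helix-loop-helix factor of lymphoid and adipose cells, had 6 long loops in diestrus and 4 in estrus, led by a loop of 920 kb with 278 and 250 contacts. Snai2, a driver of the mesenchymal state, had 2 and 5, and the extra estrus loops held 43 to 133 contacts. Maf, with 3 in each stage, met the body of Wwox: the loop of 930 kb held 259 contacts in diestrus and 126 in estrus at strengths of 8.84 and 5.86. Gata3, a zinc finger factor of T cells and epithelia, met the desert between Celf2 and itself with 2 and 3 loops, of which that of 1130 kb held 157 and 180 contacts. Sox4, an HMG-box factor of progenitor cells, met its neighbour Cdkal1 over 880 kb with 453 and 384 contacts at 12.6 in either stage. Dlx5, a factor of craniofacial and uterine gland development, met Dync1i1 over 880 kb with 279 and 350 contacts, and Irx5 met Fto over 820 kb with 70 and 77. These 2, and the Gata3 loop of 1130 kb, held more contacts in estrus.

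Among signalling genes, Shh met Lmbr1 at 2 points, 840 and 880 kb away, with 122 and 102 contacts in diestrus and 128 and 101 in estrus. Strengths were 4.35 and 4.94 in diestrus and 4.59 and 5.0 in estrus, and the counting intervals of their contacts overlapped between stages. The Shh anchor, chr5:28450001-28460000, held the end of the gene at 28456840 but not the one at 28467101. Whether either far anchor holds the limb enhancer was not tested. Rspo3, a secreted amplifier of Wnt signalling, had 6 long loops in diestrus and 5 in estrus, led by one of 880 kb with 580 and 423 contacts at 8.66 and 7.43. Pdgfra, a receptor of stromal cells, had 4 in each stage, with 347 and 289 contacts at the loop of 840 kb, and all 4 were found in both. Wnt5a, a ligand of uterine epithelial patterning, met Cacna2d3 over 940 kb with 112 and 94 contacts.

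Among nuclear receptors, Nr2f2 accounted for most of the loops, and Rarb, a retinoic acid receptor, had 2 in each stage. The estrogen receptor gene Esr1, the progesterone receptor gene Pgr and Epas1, which encodes HIF2A, had no end in an anchor of a long loop in either stage. No long loop spanned Esr1 in either stage, 1 in each stage spanned Pgr, and 1 in estrus spanned Epas1. Among guidance and adhesion genes, Epha4, an ephrin receptor, had 5 in diestrus and 2 in estrus. Its loop of 1860 kb held 316 and 236 contacts at strengths of 11.8 and 11, and the 3 listed in diestrus alone held 68 to 79. Cdh11, a mesenchymal cadherin, had 4 and 5, and Flrt2, a membrane protein that binds Unc5 receptors, 6 and 4.

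Of the 5 strongest shared long loops with a gene end in an anchor, 4 were the same in both stages. The loop from Olfr418 and Mptx2 to Mptx1 on chromosome 1 spans 28 genes of the olfactory receptor, pentraxin and interferon-inducible Ifi200 families. It held 198 contacts in diestrus and 199 in estrus at strengths of 29.4 and 33.6. Since copies of such families can share reads, its position is uncertain. Irs1, the first adaptor downstream of the insulin and IGF1 receptors, met Nyap2 across the desert between both genes, over 980 kb, with 410 and 372 contacts at strengths of 17.6 and 19.0. Basp1, a membrane protein of nerve terminals and a cofactor of WT1, had 264 and 227 contacts over 820 kb at 16.6 and 15.6. A low expectation can also give a high strength: 26 long loops in diestrus and 36 in estrus had under 3 expected contacts, 12 and 18 of these were found in the other stage, and they included the strongest of all. In diestrus that was a loop of 1690 kb on chromosome 11 with 19 contacts at a strength of 92.5, which held 13 at 68.2 in estrus. In estrus it was a loop of 1120 kb on chromosome 17 with 14 contacts at 126, not found in diestrus. The Mup7 to Mup5 loop, in the repeated major urinary protein genes, was of that kind in diestrus, with 27 contacts.

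A few long loops lay in gene-dense families instead of deserts. The largest number of genes, 85, was spanned by a diestrus loop of 1440 kb ending at the olfactory receptor gene Olfr633, with 53 contacts. The major histocompatibility complex was enclosed in both stages by a loop from H2-K1 to H2-D1, which spans 83 genes over 1270 kb, with 42 contacts in diestrus and 34 in estrus at strengths of 4.86 and 5.30. In estrus, a loop of 1700 kb on chromosome 13 had histone genes in both anchors, from H2bc11 to H3c3, with 97 contacts. The 68 genes in its span included many vomeronasal receptor genes of the Vmn1r family, and the loop was found in diestrus. Copies of such families can share reads, so the positions of these loops are uncertain too.

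Most long loops held smaller ones. A smaller loop of the same library, of at most 800 kb and wholly inside, was present in 2500 of 2639 in diestrus (94.7%, interval 93.8 to 95.6) and in 2207 of 2369 in estrus (93.2%, 92.1 to 94.1). The median long loop held 8 of them in diestrus and 7 in estrus, and the most was 63 and 48. Summed over long loops, nested loops numbered 8.27 per Mb of span in diestrus and 6.63 in estrus. The median per loop was 7.08 and 5.85 per Mb. Over the genome, smaller loops numbered 8.87 and 8.17 per Mb, so long loops were not richer in them than the genome. At least 1 nested loop shared an anchor with the long loop in 83.7% and 82.2%. A chain of smaller loops, each starting where the last one ended, led from anchor to anchor in 39.0% of long loops in diestrus (37.2 to 40.9) and 33.9% in estrus (31.9 to 35.8), most often through 2 steps. Long loops were themselves nested: 61.3% and 60.3% lay inside another long loop, and 70.4% and 67.6% inside a loop over 2 Mb. Loops over a desert held fewer smaller loops per Mb, with medians of 5.98 against 8.63 for other long loops in diestrus and 4.72 against 7.45 in estrus.

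The locus of Zfp503, a zinc finger corepressor of limb and brain, held the most. A loop of 1530 kb beside it enclosed 63 smaller loops in diestrus, and the loop of 1540 kb from Zfp503 itself enclosed 48 in estrus, over Lrmda and into Kcnma1. The loop of 1550 kb ending at Epyc, a proteoglycan gene next to Dcn, enclosed 40 in estrus. The loop from Mettl21e that passes over the fibrillar collagen gene Col3a1 enclosed 34 in estrus, and one from the neighbouring bin enclosed 42 in diestrus. At the other end of the range, the 2 Shh loops enclosed 1 smaller loop each in either stage.

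Long loops at identical positions enclosed more smaller loops in diestrus. Of 1569 such loops, 958 held more in diestrus, 315 more in estrus and 296 the same number. The sums were 15604 and 12285, a ratio of 0.787 estrus over diestrus. A smaller loop enters these counts once for every long loop around it, so stacked long loops share them. Different smaller loops inside any long loop numbered 8959 in diestrus and 7221 in estrus. Over the whole lists, with each loop counted once, the ratio of loops up to 800 kb was 0.920. Where the long loop spanned a desert the ratio of the sums was 0.739, and elsewhere 0.859. When only the strongest diestrus loops were kept, as many as estrus had, the ratio was 0.899, with more in diestrus at 767 long loops and more in estrus at 480, and that of all smaller loops was 1.01. The part that library depth has in this difference was not tested.

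The largest diestrus excess, of 17 smaller loops, was seen at Slc8a1 and at Zfp608. At Slc8a1, 3 nested members of a stack of long loops each held 27 in diestrus and 10 in estrus. At Zfp608, a zinc finger gene, a loop of 1340 kb held 44 and 27. At Slc8a1 estrus shared 10 of the 27, and all 10 of the estrus loops were found in diestrus. At Osr1, a factor of kidney and heart mesoderm, a loop of 1280 kb held 27 and 11, and the 960 kb loop from the gene itself 24 and 9. The loop of 960 kb itself held 137 contacts in diestrus and 120 in estrus. The opposite was seen beside Sox4, where the loop to Cdkal1 enclosed 6 smaller loops in diestrus and 18 in estrus, at the neural adhesion gene Ncam1 with 7 and 14, and at Zfhx3 with 13 and 20.

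**Figure D4:**
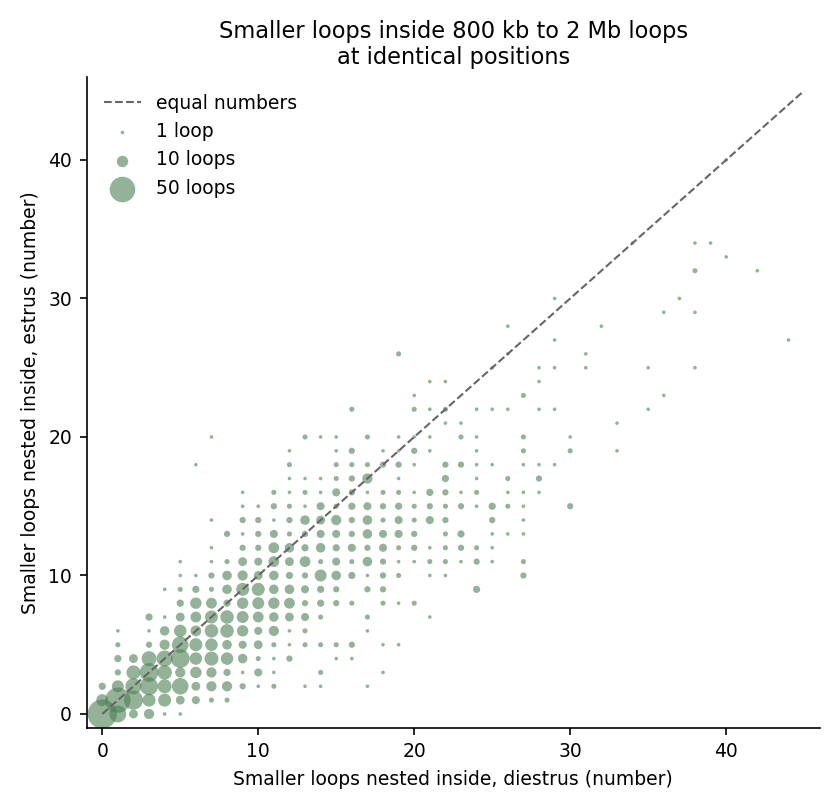
Number of smaller loops inside each of the 1569 long loops listed at identical positions in both stages, in diestrus (x axis) and estrus (y axis). The area of a circle is the number of long loops at that point, and the dashed line marks equal numbers. More long loops lie below the line (958) than above it (315).

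Taken over all lengths up to 800 kb, smaller loops inside a long loop were found in the other stage less often than those outside. In diestrus 66.6% of 8959 loops inside (interval 65.6 to 67.5) and 79.7% of 14110 outside (79.1 to 80.4) were found in estrus. In estrus the shares were 78.7% of 7221 inside (77.8 to 79.7) and 82.2% of 14011 outside (81.5 to 82.8). Loops inside were longer, with a median of 270 kb against 180 kb in diestrus and 260 kb against 180 kb in estrus. At 400 to 800 kb, 67.3% inside and 76.6% outside were found from diestrus, but 81.9% and 80.4% from estrus. Loops inside were also weaker, with median strengths of 2.91 against 3.29 in diestrus and 3.04 against 3.38 in estrus. Among those above the median strength, 89.4% inside and 91.7% outside were found from diestrus, and 94.3% and 94.2% from estrus. Among the weaker ones the shares were 49.3% and 65.5% from diestrus, and 66.6% and 68.5% from estrus. With that shorter list, 71.3% inside and 82.5% outside were found from diestrus.

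Most long loops were shared by the stages. In diestrus 1912 of 2639 were found in estrus (72.5%, interval 70.7 to 74.1), beside 74.4% of all diestrus loops, and in estrus 1913 of 2369 were found in diestrus (80.8%, 79.1 to 82.3), beside 80.8% of all estrus loops. The share was thus close to that of the whole lists. At identical bins 59.5% and 66.2% were listed in both. Desert loops were found slightly more often than others, at 73.8% (71.5 to 76.0) against 70.6% (67.8 to 73.3) in diestrus and 82.3% (80.2 to 84.3) against 78.5% (75.8 to 81.1) in estrus, and the intervals overlapped. Loops with a chain of smaller ones were found in 78.4% against 68.6% without in diestrus, and in 87.5% against 77.3% in estrus.

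Sharing rose with strength. With cuts at the quartiles, 48.3% of diestrus loops up to a strength of 3.40 were found in estrus, and 91.7% of those above 5.74. In estrus the shares were 68.0% up to 3.59 and 93.6% above 6.11. At matched strength, loops of 100 to 400 kb were shared more often in all 4 steps of strength, with 98.2% and 99.4% above these upper limits. Loops over 2 Mb were shared less often above these limits, with 77.6% and 78.8%. In the lower steps of diestrus, 54.5% of 33 such loops were shared up to 3.40 and 74.2% of 66 from there to 4.28. The shares of long loops there, 48.3% and 66.7%, lay within the intervals of these, 36.4 to 71.9 and 62.0 to 84.2. Loops of different length hold different numbers of contacts at the same strength. At matched contacts the order was the other way: above 92 contacts, 95.6% of long loops and 82.9% of loops of 100 to 400 kb were found from diestrus, and 98.3% and 89.2% from estrus.

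**Figure D5:**
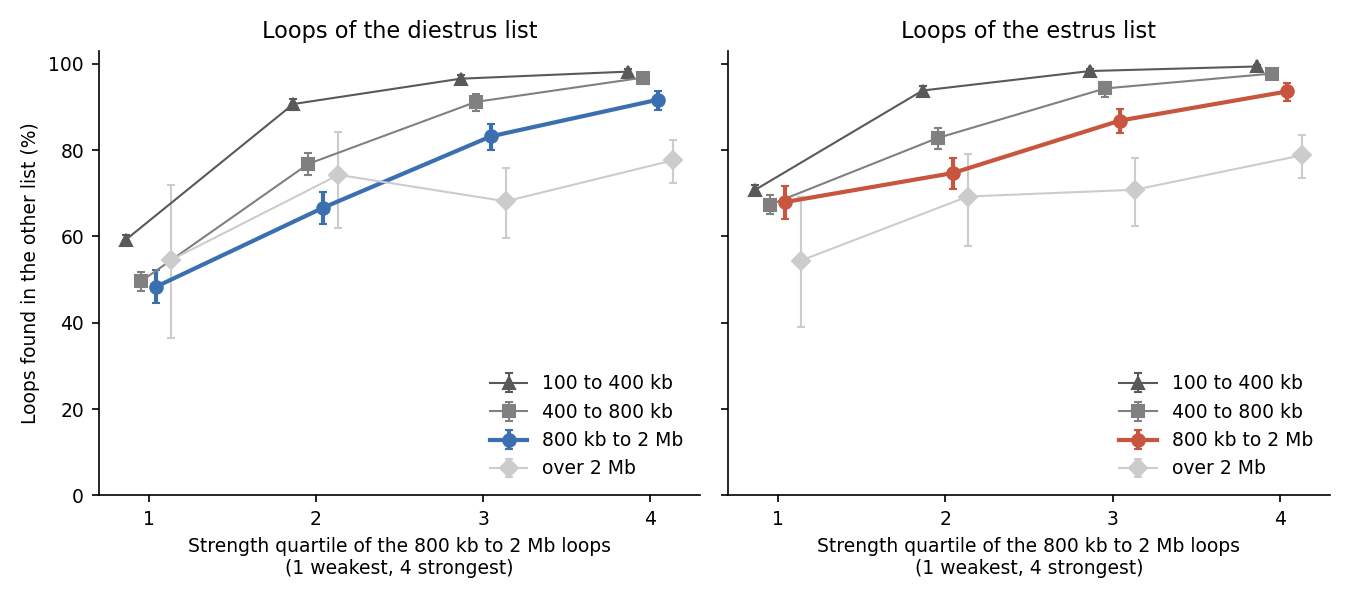
Percentage of loops found in the list of the other stage (y axis) by strength (x axis, from weakest to strongest, cut at the quartiles of the 800 kb to 2 Mb loops of that library), for loops of diestrus (left) and estrus (right) in 4 length classes, with 95% Clopper-Pearson bars. The long loops (coloured circles) rise from 48.3% to 91.7% in diestrus and from 68.0% to 93.6% in estrus.

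Most long loops listed in a single stage had both anchors among the anchors of the other list. The share expected for any 10 kb window was not computed, so the counts that follow have no background. Of 727 diestrus loops not found in estrus, both anchors were anchors of estrus loops in 482 (66.3%) and neither in 36. Of 456 estrus loops not found in diestrus, both were used in 356 (78.1%) and neither in 6. They were weaker and held fewer contacts, with medians of 3.46 and 40 contacts in diestrus and 3.77 and 36 in estrus, against 4.69 and 70, and 4.82 and 63, for loops found in both. A list shows only called loops, so an unlisted loop may still hold contacts.

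The one single-stage loop with over 100 contacts among the strongest was at Tox, an HMG-box factor of T lymphocytes. In estrus 3 long loops had an end of Tox in an anchor, of 860, 1170 and 1400 kb with 58, 149 and 33 contacts, and in diestrus none was listed. The loop of 1170 kb had a strength of 7.01 and reached the desert before Car8. The others of the strongest single-stage loops in estrus were at Zfp141, Six2, Htr1a and Smyd2, with 20 to 50 contacts. Those in diestrus were at Rnaset2a, Tafa5, Olfr633, Ccdc85a and Magel2, with 26 to 60 contacts, and the strength of 68.4 at Rnaset2a rested on an expectation of 0.380 contacts.

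The strength of shared long loops was much the same in both stages. In 1899 mutually nearest pairs, the log2 ratio of estrus over diestrus, centred on the median of all pairs, had a median of 0.00 (interval -0.01 to 0.02) and an SD of 0.29. Counting error alone would give an SD of 0.26. In all pairs the SD was 0.26 and that from counting 0.20, so the shares that follow differ in counting error. The strength was over 1.5-fold higher in estrus in 43 pairs (2.26%) and in diestrus in 34 (1.79%), beside 1.64% and 1.56% of all 19399 pairs. At identical bins the counts were 18 and 16 of 1569 pairs, with an SD of 0.257 and the same value, 0.257, from counting alone. The donut expectation was lower in estrus by a median log2 of -0.12 in these pairs and of -0.08 in all pairs.

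Of pairs with a gene end in an anchor, the largest ratio toward estrus was at Adcy8, an adenylyl cyclase gene, with 51 contacts in diestrus and 73 in estrus. The strengths were 3.36 and 7.46, a 2.19-fold difference (counting interval 1.51 to 3.20), at bins that differed between the stages. Gpr149, an orphan receptor of the ovary, followed at identical bins with 32 and 55 contacts and 2.01-fold (1.28 to 3.21). At Plk2, a polo-like kinase, the contacts were 443 and 433 and the difference of 1.93-fold came from the expectation, 40.7 in diestrus and 20.4 in estrus, again at bins that differed. Lacc1 and Ccdc122 followed with 1.76-fold and Gabrr3 with 1.69-fold.

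Toward diestrus, the largest was at Tent5a, at identical bins, with 131 contacts in diestrus and 69 in estrus and strengths of 4.73 and 2.69, a 1.78-fold difference (1.32 to 2.42). Becn2 followed with 1.66-fold, where the contacts were 74 and 77 and the expectation was 8.04 in diestrus and 13.7 in estrus. Next came Cited2 with 1.60-fold and 189 against 94 contacts, Tenm2, a teneurin, with 1.59-fold and 123 against 56 contacts at identical bins, and Mad2l1 with 1.57-fold. Each of these 10 intervals lay above 1, but the pairs were taken as the extremes of many. Other loops of Tent5a and Cited2 differed less: the 860 kb loop of Tent5a held 237 and 244 contacts.

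Chromosomes differed in how many of their loops were long. The share was highest on chromosome X, with 12.8% in diestrus and 13.4% in estrus, and lowest on chromosome 11, with 6.87% and 7.35%. Across the 20 chromosomes the share fell with gene density, with a Pearson correlation of -0.67 in diestrus and -0.72 in estrus and a Spearman one of -0.74 and -0.77. These are descriptions, since the points of a stage come from 1 library. Counted per 10 Mb of chromosome, the Pearson correlation was -0.21 in diestrus and -0.21 in estrus, and chromosome 13 had the most long loops, 13.8 and 13.3.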

How the data were processed

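Per the labels' protocols, Hi-C of the uterus used an Arima HiC kit, with 1 library per stage. The authors deposited 1 loop list per library with HiCCUPS columns, and the submitters' processing notes name Juicer and mm10. The sources used here give no aligner, version or setting. Per the file headers, each loop has raw contact counts at its peak and a count of merged pixels, an expected signal from 4 neighbourhoods, 4 q-values, and positions in 10 kb anchors. The lists hold called loops only, so an unlisted loop is not an absent contact.

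Loops whose anchors started more than 800 kb and at most 2000 kb apart were taken. Genes came from the RefSeq table of GRCm38.p6, with 21631 protein-coding genes of 49554. Strength was observed over donut-expected contacts. Pairs were mutually nearest loops of both lists with both anchors at most 10 kb apart, and their log2 ratios were centred over all 19399 pairs. Smaller loops were those of at most 800 kb. Intervals are 95% Clopper-Pearson for shares, exact conditional for ratios and order-statistic for medians; they cover counting error only. The scripts were tested on simulated data. Python 3.11.15, numpy 2.4.6, pandas 2.3.3, scipy 1.17.1 and matplotlib 3.10.9 were used.

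The members and the 7 gene lists were chosen with earlier results of these data known. Named genes were up to 6 per list with the most long loops (at least 3 over both libraries), Esr1, Pgr and Epas1, and, among loops of at least 20 contacts with a gene end, the 5 strongest shared, the 5 strongest in a single library and the 5 largest ratios each way, plus the 5 longest gene-free stretches, the 5 with the most nested loops and the 5 gene anchors with the most loops per library. Deserts, promoters printed, loops with the most genes or the lowest expectation, extremes of the nested counts, and Sox4, Foxc1, Hoxa9 in diestrus and the smaller loops of Tox were chosen after their values were seen. Alternatives changed the tolerance, the q-value and contact minimum, the expected value, the gene definition, the desert length, the nested length and the chromosomes or weak loops used.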

Additional observations from a re-analysis of the deposited data

How the results depend on the processing

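No paired analysis was possible because each stage had 1 library and no test was made. Direction was assessed only for stage differences in the number of long loops at named genes, and none of these reversed. The ratio of all loops up to 800 kb, estrus over diestrus, moved from 0.920 to 1.01 when only the strongest diestrus loops were kept. Of 80 values of the principal results under other settings, 37 moved by less than their interval or by less than 1.5 times and 43 moved by more; of 366 values for named genes, lists and loops, 341 and 25 did. The ratio of long loops, estrus over diestrus, lay between 0.882 and 0.906.

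The number of long loops with at least 50 contacts was 1565 in diestrus and 1380 in estrus. The share found in the other stage was 59.5% and 66.2% at identical bins, 74.3% in diestrus at a tolerance of 20 kb, 77.0% and 84.7% at 50 kb, 75% and 82.4% with all 4 q-values at most 0.01, and 86.8% and 93.0% with at least 50 contacts. Median strength was 3.12 and 3.31 against the largest of the 4 expected values, 4.41 and 4.68 with q-values at most 0.01, and 4.70 and 5.04 with at least 50 contacts. Of the pairs at identical bins, 18 passed 1.5-fold toward estrus and 16 toward diestrus.

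Genes per Mb were 1.69 and 1.82 without predicted genes, 9.64 and 9.74 with all annotated genes, and 1.52 and 1.60 by midpoint, a setting chosen after seeing the data. Deserts were held by 78.0% and 77.9% at 300 kb, 17.1% and 16.9% at 1 Mb, and 8.72% and 8.32% with all annotated genes. A gene end lay in an anchor in 43.0% and 44.2% within 5 kb, 67.9% and 69.1% by any base, and 49.6% and 50.2% with all annotated genes. Median nested loops in diestrus were 7 with q-values at most 0.01 and 7 with the list reduced to its strongest loops, a setting chosen after seeing the data, and 5 and 4 in the stages when at most 400 kb long. Loops at genes of the 6 developmental lists numbered 343 and 310 by any base of the gene, against 174 and 161. The number of contacts limits all values at weak loops.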
